A study of Mus musculus with 8 samples.

Results

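The 9 genes described here belong to the apicobasal polarity machinery and the membrane-anchored serine protease system of epithelial cells, and all 9 were found among the 10924 genes of the deposited table. They were chosen by symbol: 5 polarity genes (Crb3, Pard3, Pard6b, Prkci and Llgl2), the membrane-anchored serine proteases Prss8 (prostasin) and St14 (matriptase), and their Kunitz-type inhibitors Spint1 (HAI-1) and Spint2 (HAI-2). The choice was made with earlier results of these data known. Lines derived from mammary tumors of PyMT mice, in which polyoma middle T antigen is expressed under the MMTV promoter, were sorted by flow cytometry and profiled by bulk MARS-seq, which counts the 3′ ends of transcripts. Groups of 2 libraries each were made from Lats1-CKO basal-like, WT basal-like, Lats1-CKO luminal and WT luminal cells, 8 libraries in all. Luminal cells had high EpCAM and high CD49f at the surface, and basal-like cells had low EpCAM and high CD49f. All groups, WT included, thus carried the PyMT oncogene and were labeled with the strain FBV/N, while the Lats1-CKO groups also carried a conditional deletion of the Hippo kinase gene Lats1, which the study describes as made in epithelial cells. The sorted cells were expanded briefly in culture before RNA was taken. The deleted exons, the Cre driver and the number of lines or cultures behind the libraries are not given in the sources used here, so the p-values below measure only the spread between these libraries, which may be technical.

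In a polarized epithelial cell, the Crumbs protein Crb3 and the Par complex (Pard3, Pard6b and the atypical protein kinase C Prkci) mark the apical side and hold the tight junction, while Llgl2, a substrate of that kinase, is kept at the basolateral side. Matriptase and prostasin activate each other at the cell surface and act on junctions, ion channels and receptors, and the inhibitors HAI-1 and HAI-2 hold them in check. Loss of apical polarity is a known feature of carcinoma cells that leave the luminal state, and in human carcinoma cells the repressors ZEB1 and Snail act on CRB3, and ZEB1 on LLGL2, through E-box sequences.

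Promoter sequence was at hand for 6 of the 9 genes (RefSeq start sites, GRCm38.p6), with none for Llgl2, Prss8 and St14. The 250 bases before each start site were searched on both strands for CAGGTG, an E-box bound by ZEB and Snail proteins (CACCTG on the other strand), for the palindrome ACCGGT, the core of the grainyhead (GRHL) site, and for CATTCC, a site of the TEAD partners of YAP (GGAATG on the other strand). No matches overlapped. Of 32851 mouse promoters of the same length, 17.2% held at least 1 E-box, 2.06% at least 2 and 0.247% at least 3, while 1.86% held the GRHL core and 12.6% the TEAD site. Crb3 held 3 E-boxes before either of its start sites, Spint2 held 3 and Pard6b held 2. Spint1 held 0 E-boxes and 1 GRHL core, and Prkci held neither. The TEAD site was found before Prkci and before the upstream start site of Crb3, once in each. Pard3 has 2 start sites in the table, and the upstream one held 0 E-boxes and the downstream one 3. A match is a description of the letters and not a bound site. The sequences before the start sites of 4 of the genes with an E-box or a GRHL core are shown, with these letters in capitals. Whether E-boxes bear on the counts below was not tested.
Crb3 (chr17:57061951-57062143, plus strand): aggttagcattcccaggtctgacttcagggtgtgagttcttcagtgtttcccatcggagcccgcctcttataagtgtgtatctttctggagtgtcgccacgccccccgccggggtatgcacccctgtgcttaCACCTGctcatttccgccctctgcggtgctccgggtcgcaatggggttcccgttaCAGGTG
Spint2 (chr7:29281978-29282227, minus strand): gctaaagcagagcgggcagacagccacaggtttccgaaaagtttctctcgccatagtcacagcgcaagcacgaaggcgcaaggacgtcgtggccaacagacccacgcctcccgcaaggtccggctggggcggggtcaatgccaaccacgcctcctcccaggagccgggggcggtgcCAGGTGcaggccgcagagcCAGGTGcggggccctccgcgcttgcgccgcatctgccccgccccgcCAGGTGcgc
Pard6b (chr2:168080754-168081003, plus strand): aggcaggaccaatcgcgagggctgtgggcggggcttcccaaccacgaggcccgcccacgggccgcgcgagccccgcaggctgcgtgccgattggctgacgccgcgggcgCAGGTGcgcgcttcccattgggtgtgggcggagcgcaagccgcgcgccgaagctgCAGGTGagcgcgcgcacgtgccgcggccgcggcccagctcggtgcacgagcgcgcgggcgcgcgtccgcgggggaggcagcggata
Spint1 (chr2:119237110-119237359, plus strand): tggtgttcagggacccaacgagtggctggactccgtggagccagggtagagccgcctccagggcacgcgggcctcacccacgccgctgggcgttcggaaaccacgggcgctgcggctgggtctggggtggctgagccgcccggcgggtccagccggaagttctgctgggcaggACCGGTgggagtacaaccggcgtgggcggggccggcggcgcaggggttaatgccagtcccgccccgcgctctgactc
The Crb3 stretch stops at the end of its second E-box, since the rest of the window, with the third, lies in an annotated exon.

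Library totals ran from 1070358 to 2334446 reads, and 1 read was worth a normalized read count (reads divided by the size factor of the library) of 0.638 to 1.35. The libraries within a group were not equally alike. Across genes, which do not count as replicates, Pearson's r was 0.825 between the Lats1-CKO basal-like libraries, 0.883 between the Lats1-CKO luminal ones, 0.909 for WT basal-like and 0.911 for WT luminal. Each Lats1-CKO basal-like library was closer to the Lats1-CKO luminal library of the same number (0.88 and 0.883) than to its own group. Each was also closer to both WT basal-like libraries (0.83 and 0.846 for replicate 1, 0.842 and 0.871 for replicate 2) than to the other library of its group. The labels do not say whether libraries of the same number belong together. WT basal-like replicate 1 was closest to WT luminal replicate 2 (0.95). Lats1 had 8.04 and 11.6 in basal-like and 13.4 and 9.08 in luminal libraries of Lats1-CKO cells, against 30.3 and 42.2 in basal-like and 41.9 and 62.5 in luminal libraries of WT cells, so the levels followed the genotype labels, although 3′ tags need not lie in the deleted part. Epcam, the gene of the sort marker, had 10.7 and 33.7 in Lats1-CKO basal-like but 562 and 255 in WT basal-like libraries, which overlapped the luminal range of 511 to 708 only in replicate 1. Itga6 (CD49f) ran from 48.2 to 338 with overlap between all groups. The basal keratin gene Krt5 was high in 1 library alone, Lats1-CKO luminal replicate 2 (4881, against 18.3 to 31.9 in the other 7), and Krt14 was lowest in the Lats1-CKO basal-like libraries (125 and 681, against 1098 to 14722), so neither gene followed the basal-like label. The summed luminal markers (Krt8, Krt18, Krt19, Epcam, Cdh1 and Elf5, all 6 in the table) came to 108 and 195 in Lats1-CKO basal-like libraries and to 2454 to 7552 in the other 6. Krt19 was at 0 in Lats1-CKO basal-like replicate 1 and Elf5 at 0 in replicate 2. Elf5 was also at 0 in WT basal-like replicate 1, and both genes had 0.96 in Lats1-CKO luminal replicate 1, so neither alone separated the groups.

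**Figure D1:**
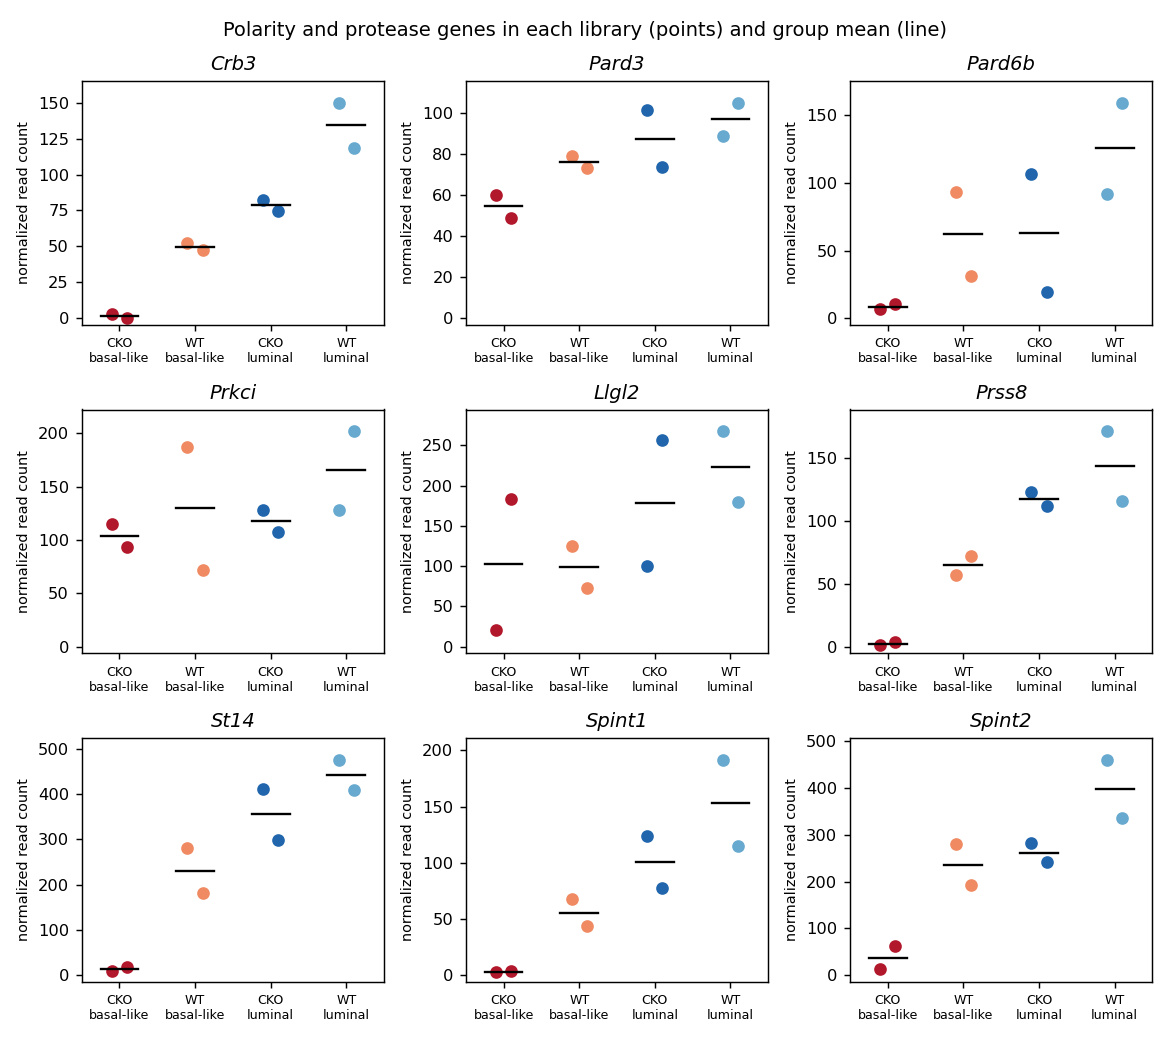
Normalized read count (linear axis from 0) of each of the 9 genes in each of the 8 libraries, with points for libraries and a line for the mean of 2. Crb3, Prss8, St14 and Spint1 sit near 0 in Lats1-CKO basal-like cells, while the ranges of Prkci overlap between each pair of groups compared.

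The order of the group means was shared by most of the genes. It ran Lats1-CKO basal-like, WT basal-like, Lats1-CKO luminal, WT luminal from low to high in 7 of 9 genes. Prkci had the middle groups exchanged, and Llgl2 was lowest in WT basal-like cells. WT luminal cells had the highest mean in all 9. The step between the middle groups was within the spread for Pard3, Pard6b, Prkci, Llgl2 and Spint2, whose WT basal-like and Lats1-CKO luminal libraries overlapped, while those of Crb3, Prss8, St14 and Spint1 did not.

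The comparison of Lats1-CKO basal-like with WT basal-like cells asked how the basal-like state differs without Lats1. Crb3, Prss8, St14 and Spint1 fell, to between 2.68% and 5.96% of the WT basal-like mean. Spint2 and Pard6b had means of 16% and 13.7% of WT but did not pass, and Pard3, Prkci and Llgl2 had means of 71.8%, 80.2% and 103% of WT. All 9 genes passed the filter on low values and entered a limma model with 9031 genes, which called 4 of the 9 lower at a Benjamini-Hochberg adjusted p under 0.05 and 0 higher, against a background of 0.443% of all genes tested called lower. The libraries did not overlap, with Lats1-CKO lower, for 7 of the 9, against 18.2% of all genes tested. The median log2 fold change of the 9 was -2.95, beside -0.02 over all genes tested. Since the list was chosen with earlier results of these data known, these shares and medians, here and below, are a description and no test of the list. Because these are bulk samples, fewer cells that express a gene and less RNA per cell cannot be told apart.

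Among the polarity genes, Crb3 (chromosome 17, 57059105 to 57065918, plus strand), the Crumbs protein of mammalian epithelia, changed most. Its normalized read count was 2.68 and 0 in Lats1-CKO basal-like, against 52.1 and 47.7 in WT basal-like libraries. The groups lay far apart, and the Lats1-CKO counts rested on 2 reads, in replicate 1 alone. The reads gave a ratio of 2.64% of WT with a 95% exact counting interval of 0.316% to 9.72%, which covers counting error only. The difference on log2(value + 1), a scale on which a low gene's change comes out too small, was -4.73 ± 0.59 (SE, limma adjusted p = 0.0237).

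Pard6b (chromosome 2, 168081004 to 168101203, plus strand), the adaptor that links the kinase to Crumbs and Cdc42, had 6.70 and 10.4 in Lats1-CKO basal-like, against 93.3 and 31.0 in WT basal-like libraries. Both Lats1-CKO libraries lay below both WT libraries, which themselves differed widely. The log2 fold change of -2.56 ± 0.84 did not pass in limma (adjusted p = 0.443), with a 95% interval of -4.52 to -0.59, and was called only by the rule of the study, a fold change over 1.5 with an unadjusted p under 0.05 in DESeq2.

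Pard3 (chromosome 8, 127063893 to 127612286, plus strand), the scaffold of the Par complex, had 60.3 and 49.2 in Lats1-CKO basal-like, against 79.3 and 73.2 in WT basal-like libraries. The groups did not overlap, but the difference was small, at -0.48 ± 0.31 (limma adjusted p = 0.719). Prkci (chromosome 3, 30995747 to 31052959, plus strand), the kinase itself, had 115 and 93.2 in Lats1-CKO basal-like, against 187 and 72.4 in WT basal-like libraries. Both Lats1-CKO values fell between the WT values, and the log2 fold change was -0.17 ± 0.48 (adjusted p = 0.945), with a 95% interval of -1.28 to 0.95.

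Llgl2 (chromosome 11, 115824049 to 115855780, plus strand) was the least even of the 9. It had 21.4 and 184 in Lats1-CKO basal-like, against 125 and 73.2 in WT basal-like libraries. The Lats1-CKO libraries thus stood on either side of both WT libraries, and replicate 2, which had 0 reads of Crb3, held Llgl2 at the level of WT luminal replicate 2 (179). The log2 fold change was -0.59 ± 0.93 (limma adjusted p = 0.902), and it turned to 0.93 without Lats1-CKO basal-like replicate 1 and to 0.05 in DESeq2 and edgeR.

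Prss8 (chromosome 7, 127925716 to 127930104, minus strand), a protease held by a lipid anchor, had 1.34 and 3.88 in Lats1-CKO basal-like, against 57.5 and 72.4 in WT basal-like libraries. These were 1 and 3 reads against 74 and 91, so the groups were far apart even at this depth. Prss8 fell by 4.28 ± 0.44 on the log2 scale (limma adjusted p = 0.0155). St14 (chromosome 9, 31089402 to 31131853, minus strand), a transmembrane protease and the usual activator of prostasin, had 9.38 and 18.1 in Lats1-CKO basal-like, against 280 and 181 in WT basal-like libraries. The highest Lats1-CKO library lay far below the lowest WT library. St14 fell by 4.01 ± 0.40 (adjusted p = 0.0149).

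The inhibitors moved in the same direction as the proteases. Spint1 (chromosome 2, 119237362 to 119249527, plus strand), the main inhibitor of matriptase, had 2.68 and 3.88 in Lats1-CKO basal-like, against 67.6 and 43.8 in WT basal-like libraries. Its 2 and 3 reads stood against 87 and 55, and it fell by 3.71 ± 0.44 (limma adjusted p = 0.0237). Spint2 (chromosome 7, 29256323 to 29281912, minus strand), which inhibits prostasin as well as matriptase, had 13.4 and 62.1 in Lats1-CKO basal-like, against 281 and 193 in WT basal-like libraries. The groups did not overlap, but the Lats1-CKO libraries were far from each other, and the log2 fold change of -2.95 ± 0.63 did not pass in limma (adjusted p = 0.174). DESeq2 with default settings called it (adjusted p = 0.00312), as did limma without Lats1-CKO basal-like replicate 2 (adjusted p = 0.0134).

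The 4 calls depended on which libraries were in the model. Without Lats1-CKO basal-like replicate 2, limma also called Spint2, and it called more genes over the whole table as well. However, the 4 calls were lost when any of the WT basal-like or WT luminal libraries was left out. In those fits fewer genes were called over the whole table too, so the loss was not particular to the 9. When only the compared groups were fitted, 0 of the 9 and 0 of all genes tested passed. Crb3 alone was lost without Lats1-CKO luminal replicate 1 (adjusted p = 0.0543) or replicate 2 (0.0535), and Spint1 without Lats1-CKO basal-like replicate 1 (0.0708). edgeR called only Prss8 and St14, with Crb3 and Spint1 at the threshold (adjusted p = 0.05). The log2 fold changes of the 4 genes stayed between -5.67 and -3.40 whichever library was left out. The summed luminal markers were 108 and 195 in Lats1-CKO basal-like, against 5272 and 2622 in WT basal-like libraries. Their part, and that of a shift in the sorted population, in the counts of the 9 genes was not tested.

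**Figure D2:**
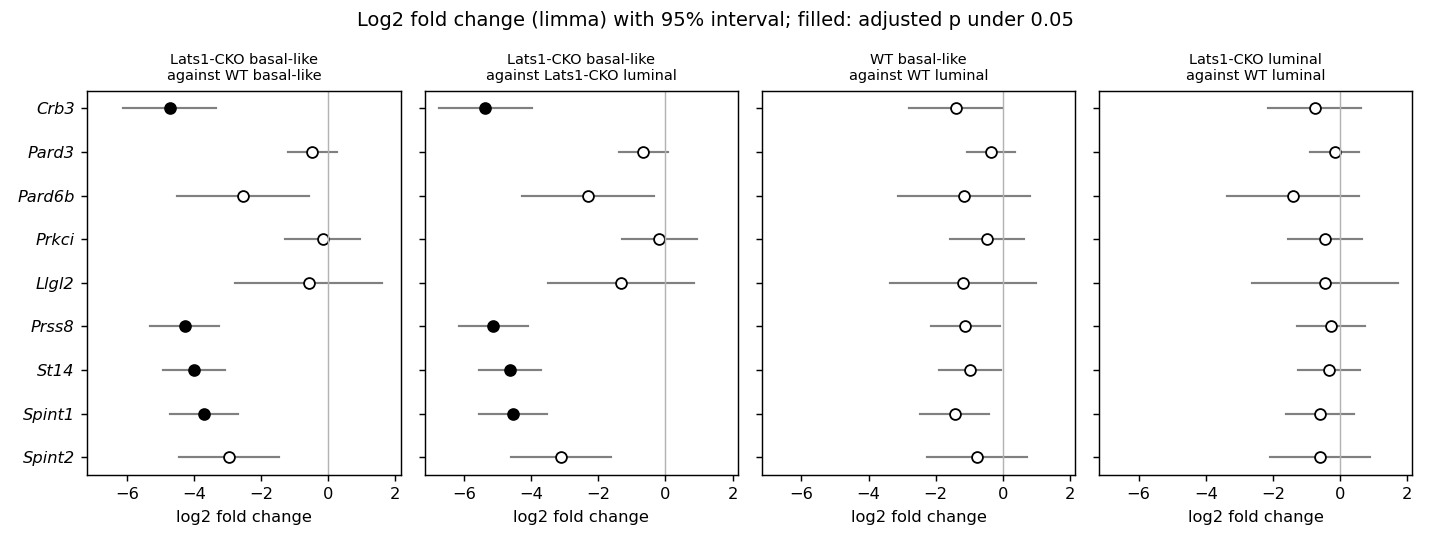
Log2 fold change of each of the 9 genes by limma (points) with its 95% interval (lines) in the 4 comparisons between groups, filled where the adjusted p was under 0.05. Crb3, Prss8, St14 and Spint1 are filled in both comparisons of Lats1-CKO basal-like cells, and in the other 2 comparisons no gene is filled although all points lie below 0.

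Within Lats1-CKO cells, the basal-like libraries were set against the luminal libraries to ask how far the sorted states differ when Lats1 is missing. The same 4 genes fell, with log2 fold changes of -5.37 ± 0.59 for Crb3 (SE, limma adjusted p = 0.0134), -5.13 ± 0.44 for Prss8 (0.00437), -4.64 ± 0.40 for St14 (0.00437) and -4.55 ± 0.44 for Spint1 (0.00895). This was 4 of 9 genes called lower, beside 0.487% of all genes tested, and 7 of 9 with no overlap and lower values, beside 18% of all genes tested. Both comparisons use the same Lats1-CKO basal-like libraries, so the calls are not independent of each other.

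In Lats1-CKO luminal libraries Crb3 had 82.5 and 74.7, Prss8 had 123 and 112, St14 had 412 and 298 and Spint1 had 124 and 77.7. All lay far above the highest Lats1-CKO basal-like library of that gene (2.68, 3.88, 18.1 and 3.88). For Crb3, the reads in Lats1-CKO basal-like cells were 1.67% of those in Lats1-CKO luminal cells, with a 95% exact counting interval of 0.201% to 6.14%.

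Spint2 had 13.4 and 62.1 in Lats1-CKO basal-like, against 283 and 241 in Lats1-CKO luminal libraries (-3.12 ± 0.63, limma adjusted p = 0.149). DESeq2 called it, both with default settings (adjusted p = 0.00145) and with those of the study (0.00206), as did limma without Lats1-CKO basal-like replicate 2 (0.00754). Its luminal libraries were close together and its basal-like libraries were not. Pard6b had 6.70 and 10.4 in Lats1-CKO basal-like, against 107 and 19.2 in Lats1-CKO luminal libraries (-2.32 ± 0.84, adjusted p = 0.571). Lats1-CKO luminal replicate 2 was nearer to the basal-like libraries than to the other luminal library. Pard3 had 60.3 and 49.2, against 102 and 73.7 (-0.66 ± 0.31, adjusted p = 0.755), Prkci had 115 and 93.2, against 129 and 108 (-0.18 ± 0.48, adjusted p = 0.979), and Llgl2 had 21.4 and 184, against 101 and 256 (-1.33 ± 0.93, adjusted p = 0.882).

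These calls were lost together in some fits. Without Lats1-CKO luminal replicate 1 the 4 calls were lost, and fewer genes were called over the whole table too. The log2 fold changes were still -5.30 for Crb3, -5.06 for Prss8, -4.41 for St14 and -4.22 for Spint1. When only the compared groups were fitted, 0 of the 9 and 0 of all genes tested passed. Crb3 was also lost without Lats1-CKO luminal replicate 2 (adjusted p = 0.0938) or without either WT luminal replicate (0.0553 and 0.0558). edgeR called these 4, and DESeq2 with default settings called them and Spint2.

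In WT cells, the basal-like libraries had lower counts than the luminal libraries for 7 of the 9 genes with no overlap, beside 12.7% of all genes tested, but no call was made. limma called 0 genes (0% lower), 133 reached an unadjusted p under 0.05, and the calls were 0 with edgeR and 4 with default DESeq2. Crb3 had 52.1 and 47.7 in WT basal-like, against 150 and 119 in WT luminal libraries (-1.40 ± 0.59). Spint1 had 67.6 and 43.8, against 192 and 115 (-1.43 ± 0.44), and Prss8 had 57.5 and 72.4, against 172 and 116 (-1.12 ± 0.44). St14 had 280 and 181, against 476 and 409 (-0.97 ± 0.40). These 4 had an unadjusted limma p under 0.05 and an adjusted p of 1.0, and the rule of the study took the same 4.

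The remaining WT values were less separated. Spint2 had 281 and 193 in WT basal-like, against 461 and 337 in WT luminal libraries (-0.76 ± 0.63), and Llgl2 had 125 and 73.2, against 268 and 179 (-1.19 ± 0.93). Neither overlapped. Pard3 had 79.3 and 73.2, against 89.2 and 105, also without overlap, while Pard6b (93.3 and 31.0, against 91.9 and 159) and Prkci (187 and 72.4, against 128 and 202) overlapped. The median of the 9 was -1.12 on the log2 scale, beside 0.01 over all genes tested.

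Lats1-CKO luminal cells differed less from WT luminal cells. All 9 log2 fold changes were negative, from -1.39 ± 0.84 for Pard6b to -0.16 ± 0.31 for Pard3, with a median of -0.45 beside 0.01 over all genes tested. limma called 0 of the 9 and 0 genes in all (0% lower), with 251 genes at an unadjusted p under 0.05, 0 called by edgeR and 27 by DESeq2 with default settings. None of these tools called a gene of the 9. Crb3 had 82.5 and 74.7 in Lats1-CKO luminal, against 150 and 119 in WT luminal libraries (-0.76 ± 0.59), and Spint2 had 283 and 241, against 461 and 337 (-0.59 ± 0.63). These 2 genes had no overlap, beside 15.2% of all genes tested lower without overlap, so the share of the 9 was near the background. Prss8 had 123 and 112, against 172 and 116 (-0.27 ± 0.44), and St14 had 412 and 298, against 476 and 409 (-0.33 ± 0.40). The 95% interval of Prss8, from -1.29 to 0.76, leaves room for a change of either sign.

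Whether the difference between basal-like and luminal cells itself differed between the genotypes was tested as an interaction, in which the WT difference is taken from the Lats1-CKO one. limma called 0 of 9031 genes (0% in either direction), with 210 at an unadjusted p under 0.05. Prss8 had -4.01 ± 0.62 and St14 had -3.67 ± 0.56 (both adjusted p = 0.224), Crb3 had -3.97 ± 0.84 (adjusted p = 0.645) and Spint1 had -3.12 ± 0.62 (adjusted p = 0.492). DESeq2 with default settings called 22 genes, Prss8 (adjusted p = 0.00623) and St14 (9.79e-05) among them, and edgeR called 0. By limma the difference was therefore not shown to depend on genotype for any of the 9.

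The ratio of protease to inhibitor was examined in each library on the log2(value + 1) scale, as a description. St14 over Spint1 was 1.5 and 1.97 in Lats1-CKO basal-like, against 2.03 and 2.03 in WT basal-like libraries. The luminal libraries had 1.73 and 1.92 without Lats1, against 1.31 and 1.82 in WT. The counts of St14 and Spint1 thus stayed in a similar proportion in all groups. Prss8 over Spint1 likewise ran from -0.65 to 0.71 with overlap between the groups. Prss8 over Spint2 was -2.62 and -3.69 in Lats1-CKO basal-like, against -2.27 and -1.40 in WT basal-like, and between -1.53 and -1.10 in the luminal libraries. St14 over Spint2 was -0.47 and -1.72 in Lats1-CKO basal-like, against -0.00 and -0.09 in WT basal-like, and between 0.05 and 0.54 in the luminal libraries. Both ratios over Spint2 were lowest in the Lats1-CKO basal-like libraries. Spint2 clearly kept more of its count than the other 3 genes only in replicate 2, with 62.1, against 13.4 in replicate 1. Its log2 fold change against WT basal-like cells was -4.02 without replicate 2, close to that of Spint1 in the same fit. Without replicate 1 the log2 fold change of Spint2 was -1.89. The counts of Prss8 and Spint1 in Lats1-CKO basal-like cells rest on 1 to 3 reads a library, and the pseudocount of 1 draws low ratios toward 0.

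**Figure D3:**
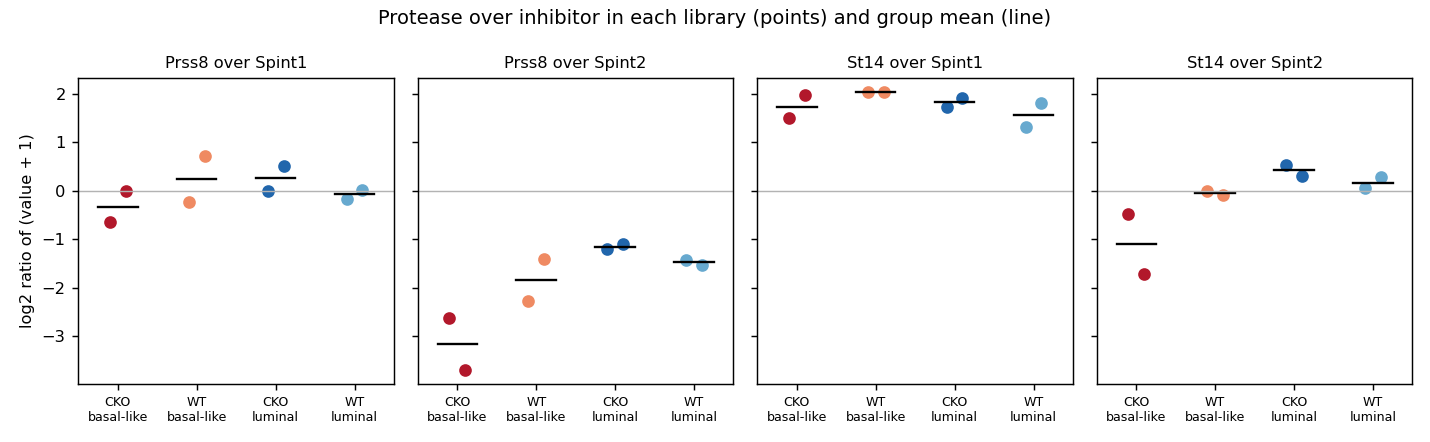
Log2 ratio of protease to inhibitor on the scale of value + 1, in each library (points) with the group mean (line). St14 over Spint1 lies between 1.31 and 2.03 in all 8 libraries, while St14 over Spint2 is below -0.4 only in the Lats1-CKO basal-like libraries.

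The genes that moved together can be described by Pearson's r of log2(value + 1) over the libraries, which share size factors and group structure. Over 8 libraries the 6 pairs among Crb3, Prss8, St14 and Spint1 had r between 0.95 and 0.99, and over the 6 libraries outside Lats1-CKO basal-like between 0.79 and 0.97. Their likeness was thus present without the libraries in which they were near 0. St14 and Spint1 were the closest pair in those 6 libraries. Prkci had r between 0.20 and 0.66 with the other 8 genes over 8 libraries. Pard6b and Prss8 had r = 0.81 over 8 libraries but 0.20 over 6, so that pair was alike mainly through the Lats1-CKO basal-like libraries.

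Over all genes tested and 8 libraries, the gene most like Prss8 was St14 (r = 0.9915), followed by Il17re, a receptor subunit, and Tmem102. Over the 6 libraries outside Lats1-CKO basal-like these had r of 0.79, 0.87 and 0.95 with Prss8, so the order holds only over 8 libraries. The other likenesses below are also those over 8 libraries. St14 was most like Marveld2, which encodes tricellulin of tricellular junctions (r = 0.9948), then Lsr, also a tricellular junction gene, and Spint1. Spint1 was most like St14 (r = 0.9925), Myo5b, a motor of apical recycling, and Il17re. Crb3 was most like Kdf1, Trim16 and Cblc, and Spint2 was most like Large2, Cyb561 and Krtcap3. Pard6b was most like Ddx41, the tight junction gene Cldn4 and Slc25a13. Pard3 was most like Fermt1, a kindlin of focal adhesions, Blnk and Rhou. Prkci was most like Cdkn2aipnl, Mns1 and Uchl3, and Llgl2 was most like Cnksr1, Lrrc47 and 2510002D24Rik.

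The other genes of the pathways were taken from lists and read by their counts. In Lats1-CKO basal-like versus WT basal-like cells, no partner of Crumbs was called as Crb3 was. Of 10 listed, 6 were tested, 0 were called in any comparison and the median log2 fold change was -0.12, with 4 negative and 2 positive. Patj had 2.68 and 14.2 in Lats1-CKO basal-like, against 28.8 and 11.1 in WT basal-like libraries (-1.34 ± 0.80). Mpp5 went the other way, with 13.4 and 14.2, against 7.77 and 9.55 (0.62 ± 0.54). Ezr (ezrin), an apical linker to actin, had 482 and 607 in Lats1-CKO basal-like, against 701 and 1743 in WT basal-like libraries. Slc9a3r1, its scaffold, had 280 and 421, against 518 and 300, and Amotl2, an angiomotin, had 311 and 525, against 190 and 229. Of the Par complex partners 4 of 6 listed were tested, with 0 called in any comparison and a median of -0.03. The small GTPase Cdc42 had 129 and 102 in Lats1-CKO basal-like, against 130 and 105 in WT basal-like libraries, and Pard6a had 28.1 and 44.0, against 35.0 and 37.4. Pard6g had 16.1 and 5.18, against 42.7 and 19.9.

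Of the basolateral Scribble module and its kinases, 12 of 12 were tested, 0 were called in any comparison and the median was 0.06. Scrib had 229 and 164 in Lats1-CKO basal-like, against 289 and 206 in WT basal-like libraries, the kinase Stk11 had 261 and 251, against 214 and 216, and Mark3 had 106 and 342, against 133 and 255. The basolateral genes thus showed no shift of the size seen for Crb3.

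Other serine proteases, most of them membrane-anchored, were scarce. Of 14 listed, 4 were in the table and 2 were tested, with 0 called in any comparison. Tmprss2 was at 0 in both libraries of Lats1-CKO basal-like cells, against 5.44 and 10.3 in WT basal-like libraries, and Prss22 had 0 and 1.29, against 17.1 and 3.98. Of the other serine protease inhibitors 2 of 6 listed were tested and 0 were called in any comparison. Slpi had 7303 and 242 in Lats1-CKO basal-like, against 816 and 2701 in WT basal-like libraries, and Serpine2 had 1038 and 1883, against 486 and 602. Neither of these was as low as Spint1, but the Lats1-CKO basal-like libraries of Slpi lay on either side of the WT basal-like ones. Serpinb5, too low to test, had 0 and 1.29 in Lats1-CKO basal-like, against 3.11 and 0.796 in WT basal-like libraries.

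Among substrates and receptors of the proteases, both genes that were called fell with them. Of 11 listed, 5 were tested and 2 fell in Lats1-CKO basal-like versus WT basal-like cells (median -3.25, beside -0.02 over all genes tested). F2rl1, the receptor PAR2 that matriptase cleaves, had 4.02 and 2.59 in Lats1-CKO basal-like, against 56.0 and 42.2 in WT basal-like libraries (-3.55 ± 0.43, limma adjusted p = 0.0237). Epcam, an adhesion molecule that matriptase cleaves, had the values given above (-4.24 ± 0.57, adjusted p = 0.0287), and as the gene of the sort marker it was part of how the groups were made. The same 2 fell against Lats1-CKO luminal cells (adjusted p = 0.0134 for F2rl1 and 0.0168 for Epcam), and 0 were called in the other comparisons. Cdcp1 (-3.25 ± 0.74, adjusted p = 0.211), Met (-0.68 ± 0.61) and Plaur (-0.12 ± 0.69) were not called. Cdcp1, a surface protein cleaved by serine proteases, was at 0 in both libraries of Lats1-CKO basal-like cells, with 10.1 and 7.16 in those of WT basal-like cells. Its fitted value, which is also the median of the list, therefore depends on the pseudocount and is no bound.

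Of 10 epithelial transcription factors 9 were tested. In Lats1-CKO basal-like versus WT basal-like cells all 9 log2 fold changes were negative (median -2.02) and 0 were called. Grhl2, which is known to act upstream of Spint1 in the mouse placenta, had 4.02 and 5.18 in Lats1-CKO basal-like, against 44.3 and 20.7 in WT basal-like libraries (-2.49 ± 0.46, limma adjusted p = 0.104). It had 52.8 and 57.5 in Lats1-CKO luminal libraries, against which it fell by 3.33 ± 0.46 (adjusted p = 0.0303). Grhl2 was the only one of the 9 called, in that comparison alone. Repressors of polarity genes went the other way in sign, but 0 of the 4 tested of 6 listed were called in any comparison. Their median log2 fold change was 1.25 in Lats1-CKO basal-like versus Lats1-CKO luminal cells. For WT basal-like against WT luminal cells it was 0.98, and for Lats1-CKO luminal against WT luminal cells 0.95. The positive median was thus not particular to Lats1-CKO basal-like cells. In Lats1-CKO basal-like versus WT basal-like cells it was 1.06. Snai1 had 413 and 123, against 102 and 123, Twist1 had 249 and 199, against 120 and 115, and Twist2 had 241 and 54.4, against 41.2 and 66.0. Snai2 had 16.1 and 38.8, against 7.77 and 7.16 (1.62 ± 0.94, adjusted p = 0.689). The libraries of Twist1 and Snai2 did not overlap, and those of Snai1 and Twist2 did. The share of all genes tested that were higher without overlap was not computed, so this is a description only. Zeb1, one of the repressors named for the E-box, was too low to test, with 14.7 and 9.06, against 4.66 and 6.36. Patj, Mpp5, Serpinb5, Snai2, Zeb1 and Cdcp1 were named after their values were seen.

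**Figure D4:**
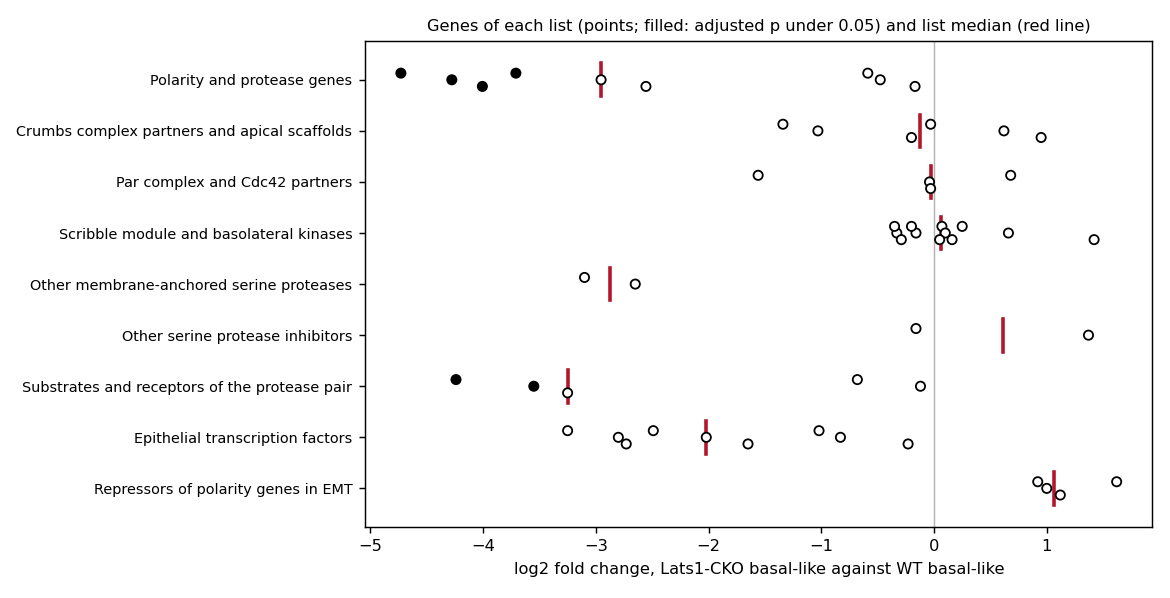
Log2 fold change by limma in Lats1-CKO basal-like versus WT basal-like cells for the genes tested of each list (points, filled where the adjusted p was under 0.05), with the list median as a red line. The 9 polarity and protease genes (median -2.95) and the substrates (median -3.25) lie left of 0, and the Scribble module (median 0.06) is centered on it.

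Markers of other cell types were read beside these results. Of 7 fibroblast markers 6 were in the table, and their sum was 1017 and 280 in Lats1-CKO basal-like, against 40.4 and 360 in WT basal-like libraries, and the luminal libraries had 228 and 104 in Lats1-CKO cells, against 8.11 and 12.8 in WT cells. Of 5 cartilage markers 4 were in the table, with sums of 275 and 28964 in basal-like and 393 and 4104 in luminal libraries of Lats1-CKO cells, against 406 and 551 in basal-like and 522 and 427 in luminal libraries of WT cells. The high values were those of Lats1-CKO replicate 2 in both sorts. Among the fibroblast markers, Thy1 had 30.8 and 16.8 in Lats1-CKO basal-like libraries and was at 0 in WT basal-like libraries, and Dcn was at 0 in all libraries except Lats1-CKO basal-like replicate 2. Of 6 basal markers 4 were in the table, with sums of 170 and 705 in Lats1-CKO basal-like, against 2142 and 1123 in WT basal-like libraries. Of 6 immune markers 2 were in the table and summed to 6.06 to 89.3, and 1 of 5 endothelial markers was in the table, at 18.8 or less. Of all marker lists, only Krt8, Krt18, Epcam and Cdh1 of the luminal list were called, and they fell in both comparisons of Lats1-CKO basal-like cells. The part of these cell types in the low counts of Crb3, Prss8, St14 and Spint1 was not tested.

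Some of the 9 genes share ground with other genes in GENCODE M21. With 1000 bases added at the 5′ edge and 100 at the 3′ edge, as in the counting, Crb3 overlaps Slc25a23 and Prss8 overlaps Kat8 on opposite strands, and Llgl2 overlaps Tsen54 on the same strand. The strand setting of the counting is not given in the sources used here. How reads in the shared stretches of the opposite-strand pairs were counted is therefore not known. In union mode a read that falls on both Llgl2 and Tsen54 is left out, whatever the strand setting. None of the 3 neighbors was called in any comparison. Slc25a23 had -0.13, Kat8 -0.12 and Tsen54 0.42 on the log2 scale in Lats1-CKO basal-like versus WT basal-like cells.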

How the data were processed

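RNA of 8 libraries (4 groups of 2, by the sample labels) was profiled by MARS-seq. Reads were trimmed (cutadapt), mapped to mm10 (STAR) and counted over Gencode genes (htseq-count, union mode) by the authors. The deposited values are a signal, the authors' read count over the DESeq2 size factor of the library. The versions of cutadapt, HTSeq, DESeq2 and Gencode and the use of molecular identifiers are not given in the sources used here. The lowest maximum of a gene was 6 reads. Values were whole multiples of 1 read for 100% of genes (tolerance 1e-06), so reads were recovered. The deposited log2 fold changes and p-values of the authors (24 columns) were not used.

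R 4.3.3 was used to run limma 3.58.1, with a trend on intensity, on log2(value + 1) for 9031 genes with at least 10 in at least 2 libraries, with 1 coefficient per group (4 residual degrees of freedom). Alternatives were DESeq2 1.42.0 with default settings, with the settings of the study and with its rule, edgeR 4.0.16 quasi-likelihood, TMM and library-total scaling, pseudocounts of 0.5 and 5, no filter, compared groups only, and each library left out. The fits were tested on simulated data with the same dispersion for all genes and groups. The spread between the real libraries was uneven, so that test says nothing of how reliable the calls here are. The 9 genes were named in every comparison, genes of other lists where called or, failing that, by mean level (up to 3), and likeness by Pearson's r. Genes and lists were chosen with earlier results of these data known. A gene of the substrate list is not reported here and was left out of its counts.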

Additional observations from a re-analysis of the deposited data

How the results depend on the processing

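The log2 fold changes of Crb3, Prss8, St14 and Spint1 in both comparisons of Lats1-CKO basal-like cells stayed negative under every alternative, and TMM scaling, library-total scaling, pseudocounts of 0.5 and 5 and no filter kept all 4 called. Library-total scaling shifted the median gene by -0.11 in Lats1-CKO basal-like versus Lats1-CKO luminal cells. In Lats1-CKO basal-like versus WT basal-like cells, 50 genes were called by limma, against 184 by DESeq2 with default settings, 170 with the settings of the study, 846 by its rule, 17 by edgeR and 0 with the compared groups only. Of the 9 genes, 4 were called, against 5, 5 and 6 by DESeq2 in the same order, 2 by edgeR and 0 with the compared groups only. In Lats1-CKO basal-like versus Lats1-CKO luminal cells the 44 genes became 137, 138 and 660 by DESeq2 in the same order and 0 with the compared groups only, and the 4 of the 9 became 5, 5 and 6 by DESeq2 and 0 with the compared groups only. In Lats1-CKO luminal against WT luminal cells 0 became 27, 27 and 300 by DESeq2 and 1 with library-total scaling. In WT basal-like against WT luminal cells 0 became 4, 1 and 150, and the rule of the study took 4 of the 9. The interaction became 22 genes and 2 of the 9 by DESeq2 with default settings. Llgl2 turned to 0.05 by DESeq2 with default settings, 0.04 with the settings and the rule of the study and 0.05 by edgeR in Lats1-CKO basal-like versus WT basal-like cells, and its interaction to 0.37 by DESeq2 and 0.35 by edgeR; the cause was not tested.

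Leaving out each library in turn gave 0 to 81 genes and 0 to 5 of the 9 in Lats1-CKO basal-like versus WT basal-like cells, 9 to 96 genes and 0 to 5 of the 9 in Lats1-CKO basal-like versus Lats1-CKO luminal cells, 0 to 2 genes in Lats1-CKO luminal against WT luminal cells and 0 to 2 in the interaction. The cause of these shifts was not tested. Signs turned for Llgl2 (-2.11 to 0.93) and Prkci (-0.85 to 0.51) in Lats1-CKO basal-like versus WT basal-like cells, for Llgl2 (-1.11 to 0.23), Pard3 (-0.39 to 0.07) and Prss8 (-0.55 to 0.01) in Lats1-CKO luminal against WT luminal cells, for Prkci (-1.14 to 0.22) in WT basal-like against WT luminal cells, for Llgl2 (-2.85 to 0.19) in Lats1-CKO basal-like versus Lats1-CKO luminal cells, and for Llgl2 (-1.67 to 1.38), Pard6b (-2.37 to 0.04) and Prkci (-0.40 to 0.96) in the interaction. No pairing was modeled, since the labels carry no replicate numbers and do not say whether libraries were made in sets. A shared line or culture behind Lats1-CKO libraries of the same number is therefore possible and was not tested. Counts of 0 to 3 reads a library of Crb3, Prss8 and Spint1 in Lats1-CKO basal-like cells limit how precisely their loss can be sized.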
